A study of Mus musculus with 16 samples.

Results

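The comparison concerns 8 of the 16 libraries in a study of odor responses in the mouse olfactory mucosa, 4 from odor-exposed and 4 from vehicle-exposed mice. Each library was the S100a5-high member of a pair made by sorting cells from the same mice. The members were chosen by a measured value: in each of 8 pools of mice the library with the higher S100a5 value of the pair was taken. S100a5 is therefore given as a description and no test is run on it.

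The mice were of the S100a5-tauGFP line on the C57BL/6 strain, in which green fluorescent protein (GFP) fused to tau reports on S100a5. There were 24 animals of both sexes, aged 7 to 12 weeks, each alone in a chamber with clean air flowing at 3.1 L/min for 40 h. After 26 h the vehicle animals began to receive filtered air, and the odor animals isoamyl acetate mixed with whiskey lactone, in pulses of 10 s repeated every 20 min. Cells of 3 animals were pooled for each sort, so a replicate is a pool and the spread between single mice is not seen. Between 50 and 100 ng of total RNA per sample was turned into labelled cRNA and hybridised to an Affymetrix array, 1 array per sorted fraction. Values are the authors' deposited log2 values, which ran from 1.69 to 19.4. The upper end exceeds the limit of 16 for a 16-bit scanner, so no difference is converted to a fold. Arrays have no read depth, and their number limits the precision.

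The olfactory sensory neuron detects odors through an odorant receptor that it chooses from a very large gene family and expresses at a high level. Binding of an odor raises cyclic AMP through the G protein Gnal and adenylyl cyclase Adcy3, opens the cyclic nucleotide-gated channel and depolarises the cell. Activity also changes transcription. S100a5, a calcium-binding protein, is among the transcripts that active olfactory neurons raise, which is why its reporter can be used to sort neurons that an odor has driven. A receptor that responds to the odor should then be more abundant among the sorted active cells, and the comparison of odor with vehicle in that fraction asks which receptors these are. In bulk samples such as these, fewer cells of a type and less RNA per cell cannot be told apart.

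The labels disagree about which fraction is which. Title and cell type tag contradict each other in every one of the 16 samples. The chosen library is titled GFP- and tagged GFP+ in 7 of 8 pools, and titled GFP+ and tagged GFP- in vehicle pool 3. Genes with a call, Pik3ip1 and Per2 are therefore also given without vehicle pool 3, and Olfr937 as a range over each pool left out. Values with the library titled GFP- from every pool are given for single genes' differences in the chosen libraries and differences of odor effects between fractions. They are given where that choice ends a call, turns a sign or moves the value by over 1.5 times. Omp, which marks mature olfactory neurons, was at 18.54 ± 0.04 (SD, n = 4) in the odor libraries and 18.63 ± 0.04 in the vehicle libraries, near the top of the table. Lcn2, a neutrophil granule protein used here as a marker of non-neuronal cells, lay between 4.49 and 8.40 in the odor libraries and between 4.47 and 8.68 in the vehicle libraries. The S100a5-low partners of these libraries lay between 14.25 and 17.35. The 8 chosen libraries correlated at 0.987 to 0.994 with each other over 19505 genes, and 0 pairs of libraries were identical. Their medians over these genes were 6.63 to 6.73 in odor and 6.63 to 6.74 in vehicle. The 5222 probe sets named as negative controls had a median of 5.45, and a mean below that is called dim here. Y-linked Uty was above 6 in pools 1 and 3 of both treatments and below it in pools 2 and 4 of both. By that threshold alone Y signal was balanced over treatment. Y-linked Eif2s3y was at 5.55 in the chosen library of odor pool 1, against 10.06 in odor pool 3 and 9.54 and 9.97 in vehicle pools 1 and 3. The mix of sexes within a pool was not tested.

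S100a5 itself was at a similar level in both treatments. In odor pools 1 to 4 the chosen libraries had 16.04, 16.66, 16.55 and 16.48, and in vehicle pools 1 to 4 they had 16.44, 16.35, 16.37 and 16.27. The groups overlapped, with means of 16.43 and 16.36 and a difference of 0.08. The library left behind in each pool had 15.39, 15.11, 15.05 and 15.55 in odor and 14.59, 14.92, 14.99 and 15.47 in vehicle. The gap within a pool, which is what the rule used, was narrowest at 0.65 in odor pool 1, followed by 0.80 in vehicle pool 4 and 0.93 in odor pool 4. It was widest at 1.86 in vehicle pool 1. With libraries titled GFP- in every pool the difference between treatments would be 0.42, because the vehicle pool 3 library would then be the S100a5-low one.

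**Figure D1:**
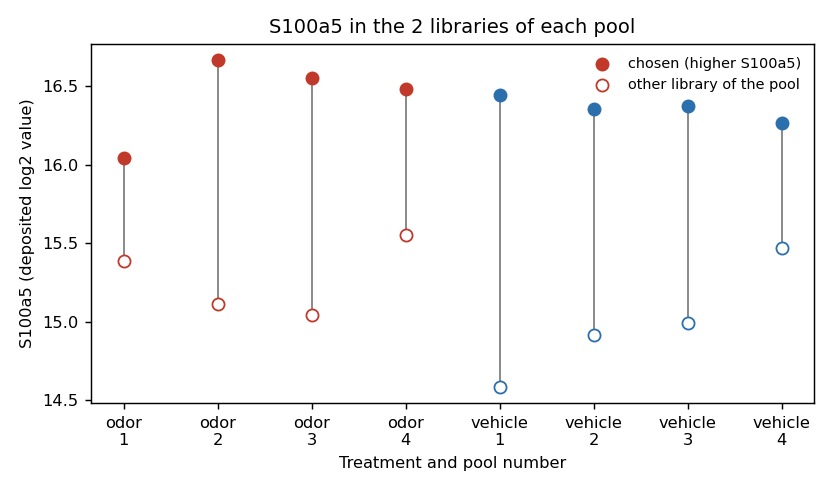
S100a5 on the deposited log2 scale (y axis) in both libraries of each of the 8 pools (x axis), with filled points for the library chosen and open points for the other. The chosen libraries lie between 16.04 and 16.66 in both treatments, and each gap is between 0.65 and 1.86.

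In the S100a5-high libraries 3 genes rose with odor exposure: the odorant receptor gene Olfr221, Camk2n1 and Pcdh10. Camk2n1 encodes an inhibitor of calcium/calmodulin-dependent protein kinase II, and Pcdh10 encodes a protocadherin, a cell adhesion molecule that is regulated by activity in olfactory axons. These 3 were 0.0154% of the 19505 genes tested, all in the positive direction, and none fell (limma with Benjamini-Hochberg adjustment, threshold 0.05). At an unadjusted p under 0.05 there were 1126 genes, 5.77% of those tested, of which 620 (3.18%) were higher and 506 (2.59%) lower after odor. In 376 genes (1.93%) all 4 odor libraries lay above all 4 vehicle libraries, and in 321 (1.65%) they lay below. In the S100a5-low libraries, fitted on their own, limma called 0 genes, and 1136 (5.82%) had an unadjusted p under 0.05, 593 (3.04%) higher and 543 (2.78%) lower. With all 16 libraries in 1 model, or with pools as a random block, 4 genes passed there, Olfr221, Camk2n1, Pcdh10 and Arid5a, the last named only because the count is small.

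**Figure D2:**
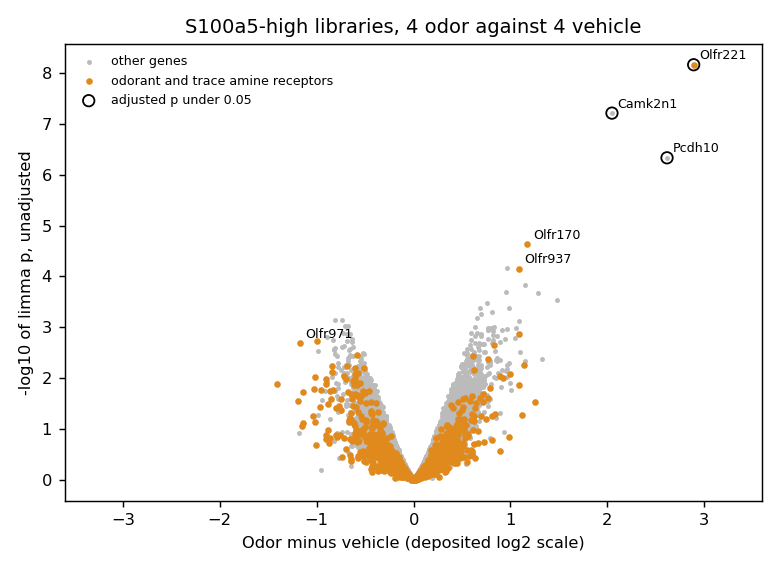
Difference between odor and vehicle on the deposited log2 scale (x axis) against -log10 of the unadjusted limma p (y axis) for 19505 genes in the 8 S100a5-high libraries, with receptors in orange. The 3 ringed genes, Olfr221 at 2.89, Camk2n1 at 2.05 and Pcdh10 at 2.62, are those with an adjusted p under 0.05.

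The sequences upstream of Olfr221 and Pcdh10 are shown because these were the receptor and the adhesion gene with the largest increases. Both come from RefSeq's GRCm38.p6 tables and run from 250 bases before to 50 bases after the annotated start, 5′ to 3′ on the gene's strand. Olfr221 lies on the minus strand at chr14:52036060-52036359 and Pcdh10 on the plus strand at chr3:45378148-45378447. Capitals mark TGACG, the core letters of the cyclic AMP response element. The 50 bases after the annotated Olfr221 start begin with atg, the letters of a start codon. That window may therefore lie just before the coding sequence and away from the promoter, which was not tested.
Olfr221: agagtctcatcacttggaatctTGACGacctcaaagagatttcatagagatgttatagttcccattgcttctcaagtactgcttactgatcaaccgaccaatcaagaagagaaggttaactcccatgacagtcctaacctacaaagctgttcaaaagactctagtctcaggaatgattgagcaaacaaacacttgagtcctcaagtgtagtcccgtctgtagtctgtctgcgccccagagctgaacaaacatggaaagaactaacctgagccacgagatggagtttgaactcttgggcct
Pcdh10: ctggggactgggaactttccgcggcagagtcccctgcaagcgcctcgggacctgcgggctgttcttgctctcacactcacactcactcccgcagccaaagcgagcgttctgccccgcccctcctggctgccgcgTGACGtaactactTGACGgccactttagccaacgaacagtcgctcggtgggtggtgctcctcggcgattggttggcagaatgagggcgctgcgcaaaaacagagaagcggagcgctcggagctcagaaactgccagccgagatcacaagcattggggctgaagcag
TGACG, searched on both strands, occurred 1 time upstream of Olfr221, beginning 228 bases before the start, and 2 times upstream of Pcdh10, beginning 116 and 103 bases before it. Among 32851 windows of this length at annotated starts 20.8% held it, and of 944 windows of odorant receptor genes 5.61%. These shares are not alike in kind where a receptor's annotated start is that of its coding sequence. The full palindrome TGACGTCA, which contains TGACG, was in 1.79% of all windows and in neither of these. TAATTA, a homeodomain core found in 5.29% of all and 18.6% of receptor windows, was absent from both of these. CCCNNGGG, a motif of Olf1/Ebf type factors present in 13.7% of all windows and 3.07% of receptor windows, was absent from both as well. For the receptors Olfr170 and Olfr937, described below with Olfr221, TGACG had 0 matches, and Olfr937 held TAATTA 1 time, beginning 76 bases before its start.

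Olfr221 showed the largest increase in the table. Its levels were 12.78, 13.18, 12.77 and 12.78 in odor pools 1 to 4 and 9.55, 10.32, 10.08 and 10.01 in vehicle pools 1 to 4. Every odor library stood more than 2 log2 units above every vehicle library. The means were 12.88 ± 0.20 and 9.99 ± 0.32 (SD, n = 4 each), and the difference was 2.89 ± 0.19 (SE, limma adjusted p = 0.000135). Without vehicle pool 3 the difference was 2.92 at an adjusted p of 0.00120. With the libraries titled GFP- it was 2.63 and missed the threshold at an adjusted p of 0.0657.

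Among the S100a5-low libraries of the same pools Olfr221 ran the other way. There it had 8.05, 9.03, 7.79 and 9.38 after odor and 10.80, 11.31, 11.13 and 9.69 after vehicle. The odor libraries were all lower, by -2.17 (limma adjusted p = 0.605, or 0.0476 with all 16 libraries in 1 model). Within the odor pools the S100a5-high library exceeded its partner by 4.73, 4.15, 4.98 and 3.40. Within the vehicle pools that gap was -1.26, -0.98, -1.04 and 0.32. With the libraries titled GFP- the difference of odor effects was 4.53 and missed the threshold (adjusted p = 0.269), whereas with the libraries chosen by S100a5 it was 5.06 ± 0.41 (SE, limma adjusted p = 0.00224). While every odor pool had more of the transcript in its S100a5-high library, 3 of the 4 vehicle pools had less there. Of the 19505 genes 2 passed this test of the difference of odor effects (0.0103%), both receptors, whereas 718 (3.68%) had an unadjusted p under 0.05, 2.08% positive and 1.6% negative.

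Olfr170 was the other receptor that passed the test of the difference of odor effects. It was at 11.47, 11.58, 11.96 and 11.63 in the S100a5-high odor libraries and at 10.69, 10.22, 10.37 and 10.67 in the vehicle ones. These groups did not overlap, and the difference of 1.18 ± 0.17 (SE) had a limma adjusted p of 0.115 in this fraction. Its S100a5-low values were 9.96, 10.09, 10.51 and 9.83 after odor and 10.68, 10.76, 10.83 and 11.51 after vehicle, a difference of -0.85. All 4 odor pools had more Olfr170 in the S100a5-high library, by 1.52, 1.49, 1.45 and 1.80. The vehicle pools had gaps of 0.01, -0.54, -0.46 and -0.84. The odor effects differed by 2.02 ± 0.22 (SE, limma adjusted p = 0.0183). The call was lost with the libraries titled GFP-, at 1.79 (adjusted p = 0.999), and with the replicate number as a block (adjusted p = 0.140). Without vehicle pool 3 this value stayed at 2.02 with an adjusted p of 0.116, past the threshold no longer. It also missed the threshold without vehicle pool 2 or 4 or any of the 4 odor pools (adjusted p up to 0.135), and passed without vehicle pool 1.

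Olfr937 had the same arrangement at a lower level without a call. In the S100a5-high libraries it was at 9.61, 9.27, 9.58 and 9.54 after odor and at 8.12, 8.19, 8.76 and 8.58 after vehicle. The groups did not overlap, and the difference was 1.09 ± 0.18 (SE, limma adjusted p = 0.231). Its S100a5-low libraries had 6.91, 7.42, 7.21 and 6.67 after odor against 7.90, 7.87, 9.39 and 8.03 after vehicle, a difference of -1.25. The difference of odor effects was 2.33 ± 0.30 (SE, limma adjusted p = 0.0718). With a pool left out, vehicle pool 3 included, the S100a5-high difference of Olfr937 ran from 0.99 to 1.20. Its difference of odor effects then ran from 2.08 to 2.53, and neither passed the threshold. Vehicle pool 3 was the only pool in which Olfr937 was lower in the S100a5-high library, by a gap of -0.63, against 0.22, 0.32 and 0.55 in the other vehicle pools and 1.86 to 2.88 in the odor pools.

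**Figure D3:**
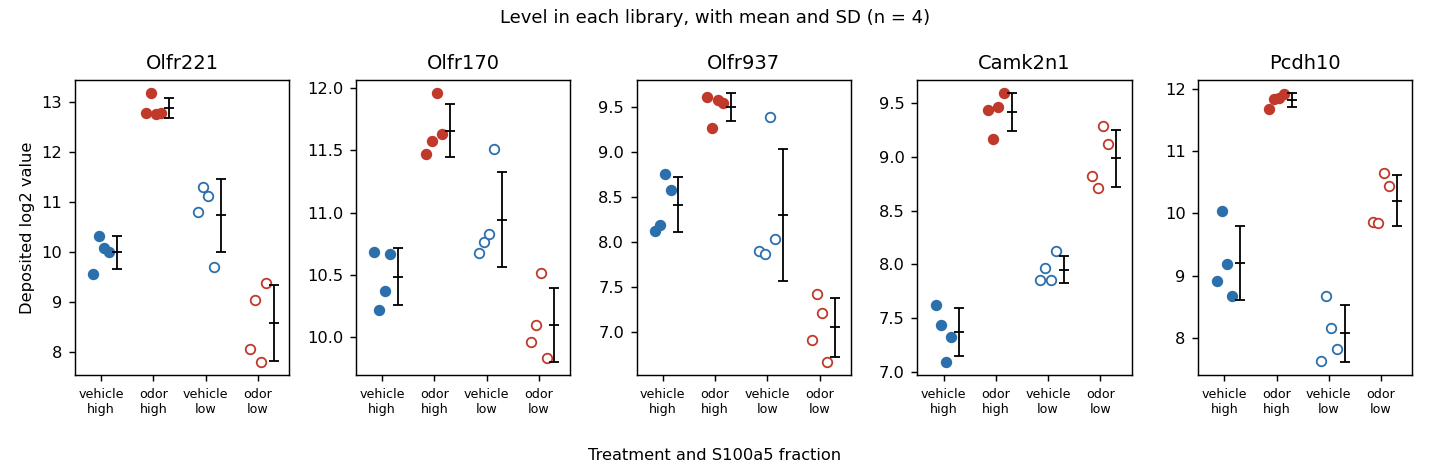
Deposited log2 value (y axis) of Olfr221, Olfr170, Olfr937, Camk2n1 and Pcdh10 in each library by treatment and S100a5 fraction (x axis), with bars for mean and SD (n = 4). In the 3 receptors odor lies above vehicle in the S100a5-high fraction and below it in the S100a5-low fraction, whereas Camk2n1 and Pcdh10 lie above in both.

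Of 1094 olfactory receptor genes, these 3 were the ones whose odor libraries all lay above vehicle in the S100a5-high fraction and all below it in the S100a5-low fraction. Of all 19505 genes 5 (0.0256%) had that arrangement. No receptor had the reverse arrangement, which 0 of all 19505 genes had. None lay above in both, against 33 of all genes (0.169%), and these absences are not read as a result about the receptors. Olfr971 alone among receptors lay below in both, as 19 of all genes (0.0974%) did, at -1.17 (limma adjusted p = 0.684) in the S100a5-high libraries and -1.07 in the S100a5-low ones. Differences beyond 1 log2 unit were few: 8 of 1094 receptors (0.731%) had a difference above 1 and 12 (1.10%) below -1, against 0.103% and 0.0666% of all genes. At an unadjusted p under 0.05 there were 32 receptors (2.93%, against 3.18% of all genes) higher and 57 (5.21%, against 2.59%) lower. Without vehicle pool 3 there were 55 higher and 50 lower, and with the libraries titled GFP- 48 and 35. Their median difference was -0.04, against -0.01 for all genes.

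**Figure D4:**
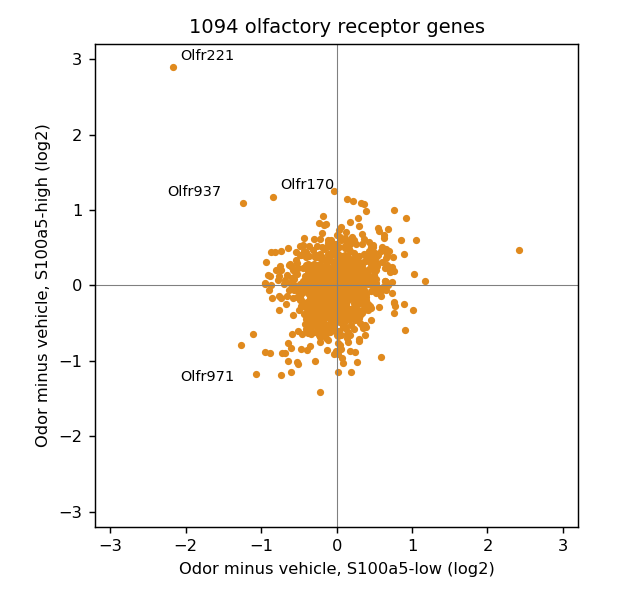
Difference between odor and vehicle on the deposited log2 scale in the S100a5-low libraries (x axis) and the S100a5-high libraries (y axis), with 1 point for each of 1094 receptor genes. Olfr221, Olfr170 and Olfr937 lie at the upper left, at 2.89, 1.18 and 1.09 on the y axis, and Olfr971 at the lower left.

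The next receptors by p on the positive side were Olfr1202, Olfr305 and Olfr167. Olfr1202 was at 9.73 ± 0.24 after odor and 8.64 ± 0.57 after vehicle (SD, n = 4), a difference of 1.09. Olfr305 was at 5.59 ± 0.23 and 4.76 ± 0.40, so that its vehicle mean was dim, and differed by 0.83. Olfr167 was abundant, at 13.67 ± 0.05 and 13.05 ± 0.30, and differed by 0.62. In each of these 3 the odor libraries lay above all vehicle libraries in this fraction while the groups overlapped in the S100a5-low fraction, and none passed the threshold (limma adjusted p from 0.684 to 0.686). Their differences were 0.41, -0.01 and 1.08 in that order with the libraries titled GFP-.

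On the negative side the smallest p-values belonged to Olfr1495, Olfr971, Olfr1232, Olfr661, Olfr390 and Olfr617, with differences from -1.17 to -0.59 and limma adjusted p from 0.684 to 0.686. Olfr1495 was dim in both groups, at 4.18 ± 0.26 after odor and 5.18 ± 0.52 after vehicle (SD, n = 4). Olfr971 had 7.18, 7.45, 6.72 and 6.08 after odor against 7.96, 8.49, 8.17 and 7.49 after vehicle, with no overlap. Olfr1232 was at 9.85 ± 0.25 and 10.44 ± 0.08. Olfr661 and Olfr617, both of class I, were at 11.37 ± 0.39 against 12.06 ± 0.19 and at 10.20 ± 0.17 against 10.81 ± 0.31. Olfr390 was at 5.14 ± 0.43 against 5.98 ± 0.39, so that its odor mean was dim. With the libraries titled GFP- the differences of Olfr1495 and Olfr390 were -2.74 and -2.66, those of Olfr971 and Olfr1232 were -0.60 and -0.08, and Olfr617 turned to 0.01.

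Neighbouring genes and members of the same families are given for comparison with the 3 receptors, without a test of the difference. The 3 measured receptors on each side of Olfr221 in RefSeq gene order differed by -0.37 to 0.81, with 0 at an unadjusted p under 0.05. Those around Olfr170 differed by 0.03 to 0.64, and Olfr167 was the 1 of them with an unadjusted p under 0.05. Those around Olfr937 differed by -0.42 to 0.62. By the MOR family names that RefSeq lists as synonyms, which group odorant receptors by sequence, Olfr221 was the only measured member of family MOR205. Olfr170's family MOR273 had 2 other measured members, at 0.03 and 0.42. Olfr937's family MOR171 had 35 others, which ran from -1.17 to 0.89 with a median of -0.04, the lowest being Olfr971. The highest was Olfr1037, named as an end of that range, at 0.89 ± 0.28 (SE, limma adjusted p = 0.719) with all odor libraries above all vehicle libraries. Probe sets of receptors with near-identical copies can share signal, and this was not tested here.

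Class I receptors, the smaller family, which is expressed mostly in the dorsal epithelium, had mostly negative differences. Of 118 measured members 96 had a negative difference, with a median of -0.31 and a lowest value of -1.41. At an unadjusted p under 0.05 there were 26 lower (22.0%, against 2.59% of all genes) and 2 higher (1.69%, against 3.18%), and 0 passed the threshold. The odor libraries lay below all vehicle libraries in 6 members (5.08%, against 1.65% of all genes) and above them in 0. Since libraries share every gene, these members are not independent of each other, and the medians per library overlapped. The class I median was 7.77, 8.15, 8.31 and 7.59 in odor pools 1 to 4 and 7.97, 8.33, 8.56 and 8.32 in vehicle pools 1 to 4. For the S100a5-low libraries the class I median difference was -0.06, with 4 members higher and 11 lower at an unadjusted p under 0.05. The shares of all genes there were 3.04% higher and 2.78% lower. In the S100a5-high libraries, leaving out vehicle pool 3 left 16 lower at that level, with a median difference of -0.25, and leaving out odor pool 1 left 17. With the libraries titled GFP- there were also 16, with a median difference of -0.21.

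Class II receptors, the larger family, were centred on 0. Of 942 members 29 (3.08%) were higher and 27 (2.87%) lower at an unadjusted p under 0.05, shares close to those of all genes, and the median difference was 0.01. These counts became 52 and 30 without vehicle pool 3, 28 and 52 without vehicle pool 4, 28 and 42 without odor pool 3, and 45 and 17 with the libraries titled GFP-. Their median level was 8.80 ± 0.21 after odor and 8.74 ± 0.32 after vehicle (SD, n = 4). The 14 trace amine-associated receptors, which detect amines, had a median difference of -0.29, with 11 negative, 2 lower (14.3%, against 2.59% of all genes) and 0 higher at an unadjusted p under 0.05, and 0 past the threshold. The median was -0.12 without vehicle pool 2 and -0.15 without odor pool 3. No member was lower at that level without odor pool 3, odor pool 4 or vehicle pool 4, 3 were without odor pool 2, and 1 was without odor pool 1, vehicle pool 1 or vehicle pool 2, or with the libraries titled GFP-. Their median level was 7.50, 7.44, 7.28 and 7.52 after odor and 7.52, 7.50, 7.55 and 8.62 after vehicle, so vehicle pool 4 stood above the other 7. Of 321 vomeronasal receptors 21 (6.54%, against 3.18% of all genes) were higher and 6 (1.87%, against 2.59%) lower at that level. The library means of this list were dim, at 3.96 to 4.06 after odor and 3.90 to 3.97 after vehicle, below the median of the negative controls. These counts are therefore not read as a result about the receptors. Vmn1r4, the vomeronasal receptor with the smallest p, had a difference of 1.15 (limma adjusted p = 0.404) between means that were both dim, at 4.61 and 3.46.

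Camk2n1 rose in every odor library. It had 9.44, 9.17, 9.46 and 9.59 after odor and 7.62, 7.44, 7.09 and 7.32 after vehicle, with no overlap. The means were 9.42 ± 0.18 and 7.37 ± 0.22 (SD, n = 4), and the difference was 2.05 ± 0.16 (SE, limma adjusted p = 0.000600). It was 1.95 without vehicle pool 3 (adjusted p = 0.00344) and 1.86 with the libraries titled GFP-, where it was the only gene to pass (adjusted p = 0.0169). The S100a5-low libraries had 8.83, 8.71, 9.29 and 9.12 after odor and 7.86, 7.97, 7.85 and 8.12 after vehicle. That is a difference of 1.04 with no overlap and a limma adjusted p of 0.465, or 0.0336 with all 16 libraries in 1 model. Within the odor pools the S100a5-high library exceeded its partner by 0.61, 0.46, 0.18 and 0.47. Within the vehicle pools that gap was -0.23, -0.53, -0.76 and -0.80. The odor effects differed between the fractions by 1.01 ± 0.20 (SE, adjusted p = 0.999), or by 0.63 with the libraries titled GFP-.

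Pcdh10 behaved in the same direction in both fractions. Its S100a5-high levels were 11.67, 11.83, 11.86 and 11.92 after odor and 8.91, 10.04, 9.19 and 8.67 after vehicle. The odor pools were close to each other, while vehicle pool 2 stood above the other vehicle pools. The means were 11.82 ± 0.11 and 9.20 ± 0.60 (SD, n = 4), a difference of 2.62 ± 0.26 (SE, limma adjusted p = 0.00303). Without vehicle pool 3 it was 2.61 (adjusted p = 0.0213), and with the libraries titled GFP- it was 2.87 and missed the threshold (adjusted p = 0.0657). Its S100a5-low levels were 9.86, 9.85, 10.65 and 10.44 after odor and 7.64, 8.67, 8.17 and 7.83 after vehicle, a difference of 2.12 with no overlap (adjusted p = 0.135, or 0.0121 with all 16 libraries in 1 model). The odor effects differed by 0.49 ± 0.22 (SE, adjusted p = 0.999), or by 1.00 with the libraries titled GFP-. This is unlike Olfr221, whose effects in the fractions had opposite signs.

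Beside S100a5, 11 genes were listed as raised by olfactory neuron activity. Of these 2 passed the threshold, Camk2n1 and Pcdh10, and 5 were higher (45.5%, against 3.18% of all genes) and 1 lower (9.09%, against 2.59%) at an unadjusted p under 0.05. The median was 0.31, against -0.01 for all genes, and 0.17 without odor pool 1. Camk2n1, Pcdh10 and Pik3ip1 were put on the list with earlier results of these samples known, so these counts and the median are a description and no independent evidence of direction. Lrrc3b, a leucine-rich repeat membrane protein, was at 13.92, 14.24, 14.58 and 14.04 after odor and 13.39, 12.86, 13.73 and 12.94 after vehicle. All odor libraries were above all vehicle libraries, and the difference was 0.97 ± 0.22 (SE, limma adjusted p = 0.684). Kirrel2, an adhesion molecule that sorts olfactory axons by activity, was at 15.27, 14.90, 16.05 and 15.35 against 14.42, 14.19, 14.94 and 14.56. Here odor pool 2 was just below vehicle pool 3, so that the groups overlapped, and the difference was 0.86 ± 0.25 (SE, adjusted p = 0.686). Lrrc3b and Kirrel2 differed by 1.14 and 1.18 in the S100a5-low libraries. Plxna1, a semaphorin receptor, differed by 0.55 (adjusted p = 0.751).

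Pik3ip1, an inhibitor of phosphoinositide 3-kinase, was the list's member with the lowest value. It was at 10.72, 10.63, 10.51 and 10.65 after odor and at 11.66, 11.56, 10.53 and 11.59 after vehicle. Vehicle pool 3 sat with the odor libraries and the other vehicle pools about 1 log2 unit higher. The difference was -0.71 (limma adjusted p = 0.732), and -0.97 without vehicle pool 3 (adjusted p = 0.254). Of 5 genes listed as lowered by activity, 0 had an unadjusted p under 0.05 in either direction, and the guidance receptor Robo2 differed by -0.09, or -0.30 with the libraries titled GFP-.

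**Figure D5:**
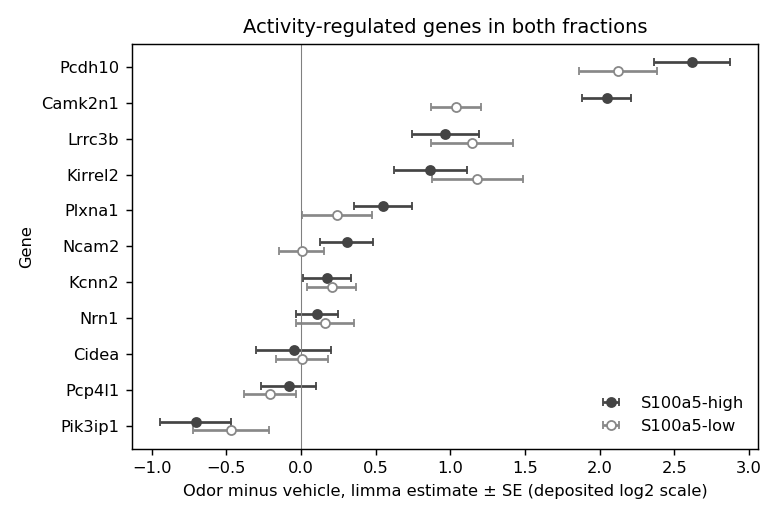
Limma estimate of the difference between odor and vehicle on the deposited log2 scale, with SE (x axis), for the 11 genes other than S100a5 listed as raised by activity (y axis), in the S100a5-high (filled) and S100a5-low (open) libraries. Pcdh10 at 2.62 and Camk2n1 at 2.05 lie apart from the other members, of which Lrrc3b at 0.97 and Kirrel2 at 0.86 come next.

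Immediate early genes, which respond within minutes of a stimulus, gave no call. Of 30 measured members 3 were higher (10%, against 3.18% of all genes) and 1 lower (3.33%, against 2.59%) at an unadjusted p under 0.05. The median difference was -0.08. Counts were 0 higher and 2 lower with the libraries titled GFP-, and without vehicle pool 3 there were 3 and 4. Nr4a2, an orphan nuclear receptor, was at 5.28, 5.99, 5.84 and 6.50 after odor and 5.40, 4.39, 5.25 and 4.64 after vehicle, a difference of 0.98 with overlap (limma adjusted p = 0.686). Its vehicle mean was dim, at 4.92. Fosb, a subunit of the AP-1 factor, was at 7.69, 9.02, 7.80 and 8.99 against 7.00, 7.88, 7.02 and 7.62, a difference of 1.00 (adjusted p = 0.732). Odor pools 2 and 4 were the high ones for Fosb. Nr4a1 differed by 0.55 (adjusted p = 0.778). With the libraries titled GFP-, Nr4a2 differed by 0.25, and Fosb and Nr4a1 changed sign, to -0.35 and -0.05.

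Feedback regulators of cyclic AMP and calcium signalling had 11 measured members, among them Camk2n1 and Pik3ip1. At an unadjusted p under 0.05 there were 3 higher (27.3%, against 3.18% of all genes) and 1 lower (9.09%, against 2.59%). Camk2n1 was among the higher and Pik3ip1 was the lower one. The list had 4 positive and 7 negative differences, with a median of -0.06, or -0.01 with the libraries titled GFP-. It was chosen with earlier results of these samples known, so its counts are a description and no independent evidence. The count of higher members was 1 without vehicle pool 1, and 2 without odor pool 1 or 2 or vehicle pool 2 or 3. Pde4a, a phosphodiesterase that degrades cyclic AMP, differed by 0.41 (limma adjusted p = 0.771). The 18 genes of the transduction cascade had 1 higher (5.56%, against 3.18% of all genes) and 0 lower at that level, with a median of -0.02. Cngb1, a subunit of the cyclic nucleotide-gated channel, differed by -0.47 (limma adjusted p = 0.850), and its odor mean was dim, at 5.28. Of 14 genes of receptor choice and the unfolded protein response, 0 had an unadjusted p under 0.05, and the stress factor Ddit3 differed by -0.32, or -0.17 with the libraries titled GFP-. Axon guidance genes had 3 of 18 higher at that level (16.7%, against 3.18% of all genes), Pcdh10, Kirrel2 and Plxna1 being the members with the smallest p. The axon guidance list was likewise chosen with earlier results known, and its counts are a description only. The median of that list was 0.10, and without odor pool 3 there were 2 higher and 1 lower.

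Neuronal identity and zone lists gave no call. Of 14 mature neuron genes 0 had an unadjusted p under 0.05, with a median of -0.03. Of 14 immature neuron genes 2 were lower at that level (14.3%, against 2.59% of all genes). Only 1 was lower without odor pool 2 or vehicle pool 1 or with the libraries titled GFP-. Gap43, a growth cone protein of immature neurons, was at 7.76 ± 0.25 after odor and 8.43 ± 0.26 after vehicle (SD, n = 4), without overlap, a difference of -0.67 (limma adjusted p = 0.686). Stmn1, a microtubule regulator, differed by -0.38 (adjusted p = 0.778). The values of both were -1.31 and -0.99 with the libraries titled GFP-. In the immature list 7 differences were positive and 7 negative, with a median of -0.04. With the libraries titled GFP- 4 were positive and 10 negative, with a median of -0.17. The mean level of the immature list was 11.23 to 11.34 in the odor libraries and 11.39 to 11.51 in the vehicle libraries, which do not overlap. Of 6 genes that mark dorsal or ventral zones, 0 had an unadjusted p under 0.05. They had 4 positive and 2 negative differences, the lowest at -0.20. Their median of 0.24, or 0.12 with the libraries titled GFP-, mixes markers of both zones and is not read as a zone shift. Nfia, Ncam2 and Nfix, the members with the smallest p, differed by 0.45, 0.31 and 0.29. Nfia differed by 0.15 with the libraries titled GFP-. The part of neuron age or zone in the class I values was not tested.

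Markers of other cell types gave no call. Myeloid genes had 2 positive and 10 negative differences, a median of -0.42 and a library mean of at most 6.55 after odor and 6.93 after vehicle, overlapping, with 0 of 12 at an unadjusted p under 0.05. Without vehicle pool 3 there were 4 lower, without odor pool 2 or with the libraries titled GFP- 3, and without vehicle pool 4 1. S100a9, a neutrophil granule protein, differed by -0.99 between overlapping groups (limma adjusted p = 0.850), and by -2.65 with the libraries titled GFP-. Sustentacular genes, 0 of 11 at that level, had library means of 7.25 to 8.49 and 7.71 to 8.28. Fibroblast genes, 0 of 5, had library means of 4.67 to 5.10 after odor and 5.18 to 5.45 after vehicle, all near or below the median of the negative controls. These ranges did not overlap, and all 5 differences were negative, with a median of -0.31. Globose and horizontal basal, microvillar, endothelial, ciliated, red blood and guanylyl cyclase D neuron lists also had 0 members at that level. Bowman gland, ensheathing glia and lymphoid lists had 1 each, higher (12.5%, 16.7% and 12.5%, against 3.18% of all genes). Bowman gland genes had 7 positive and 1 negative difference, with a median of 0.33, or 0.05 with the libraries titled GFP-. The glial regulator Sox10, on the Bowman gland and ensheathing glia lists, was dim in both groups, at 5.30 and 4.73, and differed by 0.57 (limma adjusted p = 0.759). Lymphoid genes had 2 positive and 6 negative differences, with a median of -0.18, or -0.43 with the libraries titled GFP-. Among them the interleukin receptor Il7r, whose vehicle mean was dim at 5.16, differed by 0.66 (limma adjusted p = 0.686), and by 0.14 with the libraries titled GFP-. The part of these markers in the receptor and activity results was not tested.

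Circadian clock genes had mostly negative differences, none of them called. Of 15 members 12 were negative, with a median of -0.23, and 4 (26.7%, against 2.59% of all genes) were lower and 0 higher at an unadjusted p under 0.05. The count of lower members was 6 without vehicle pool 3 or odor pool 1, and 2 without odor pool 3 or with the libraries titled GFP-. Per2, a repressor of the clock loop, was at 10.90, 10.24, 10.45 and 10.43 after odor and 11.73, 11.29, 10.82 and 12.10 after vehicle. The groups overlapped because vehicle pool 3, at 10.82, was below odor pool 1, and the difference was -0.98 ± 0.26 (SE, limma adjusted p = 0.686). Without vehicle pool 3 it was -1.20 (adjusted p = 0.275). Per2 differed by -0.997 in the S100a5-low libraries. Ciart, another clock repressor, differed by -0.83, with vehicle pool 3 at 4.84 and the other vehicle pools at 5.70, 5.90 and 6.09. Its odor mean was dim, at 4.81. Bhlhe41, a transcriptional repressor of the clock, differed by -0.65. The time of day at which each pool was collected is not given in the sources used here, and its part was not tested.

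Outside these lists the genes with the smallest p, beyond those called, were Hivep2, Vmn1r4, Bag3 and Banp on the positive side. Hivep2, a zinc finger transcription factor, was at 10.23, 9.81, 10.16 and 9.87 after odor and 8.85, 9.09, 9.19 and 9.10 after vehicle, with no overlap, a difference of 0.96 ± 0.16 (SE, limma adjusted p = 0.231). Its S100a5-low groups did not overlap either, at a difference of 0.62. Banp, a nuclear matrix protein, differed by 1.28 (adjusted p = 0.448) in this fraction and by 1.13 in the S100a5-low one. Bag3, a co-chaperone of heat shock protein 70, was at 7.20 ± 0.21 against 6.25 ± 0.26 (SD, n = 4), a difference of 0.95 (adjusted p = 0.448). Hsph1, a member of the heat shock list, differed by 0.52 (limma adjusted p = 0.700). In that list 1 of 7 genes was higher at an unadjusted p under 0.05 (14.3%, against 3.18% of all genes). Its differences were 1 positive and 6 negative, with a median of -0.11, or -0.18 with the libraries titled GFP-. On the negative side Timm9, Prok2, Grhpr, Dusp26, Acot9 and Chn2 differed by -0.81 to -0.67 (adjusted p = 0.684 each). Prok2, a secreted signalling peptide, and Chn2, a Rac regulator, were dim in both groups, and Timm9 had a dim odor mean of 4.99.

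The genes whose 8 values were most like those of Olfr221 were Katnal2 (Pearson r = 0.978), Pcdh10 (0.975), Prickle2 (0.964), Tdp1 (0.963) and Camk2n1 (0.956). These coefficients describe 8 libraries in which the treatments are set apart, and the same libraries chose the genes. Katnal2, Prickle2 and Tdp1 differed by 0.59, 0.55 and 0.69 between odor and vehicle and did not pass the threshold.

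The differences were of similar size in pools with and without Y-linked signal. With Y signal, pools 1 and 3 of each treatment, Olfr221 differed by 2.96, and without it, pools 2 and 4, by 2.82. Camk2n1 differed by 2.09 and 2.00, and Pcdh10 by 2.71 and 2.52. Olfr170 had 1.19 and 1.16, and Olfr937 had 1.15 and 1.02. Each of these values rests on 2 pools against 2 and carries no test. Odor pool 1, counted among the pools with Y signal, had less Eif2s3y than the others so counted.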

How the data were processed

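The authors deposited 1 table of log2 values for 16 Affymetrix arrays, for which the submitters' processing notes name Affymetrix Expression Console. No version, summarization or build was given in the sources used here. Of 28846 probe sets 6640 were controls, 19572 had 1 symbol in the platform annotation, 0 several and 2634 none. The brightest probe set was kept for 55 genes that had several, which left 19505 genes, 1047 of them unnamed loci. Receptors were 1080 odorant and 14 trace amine-associated genes; class came from MOR names in RefSeq's GRCm38.p6 table.

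Treatment and pool number came from the titles and the fraction from S100a5. The 4 odor and 4 vehicle libraries so chosen were compared by two-sided limma tests (lmFit, eBayes, version 3.58.1, R 4.3.3), with Benjamini-Hochberg adjustment over 19505 genes and a threshold of 0.05. The other 8 libraries were fitted separately, and the difference of odor effects was a fit to the 8 within-pool differences. Nothing in the labels says more of the replicates than that they were separate pools of 3 mice. The procedure was tested on simulated data.

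The members, the lists and the tests were chosen with earlier results of these data known. Named genes were the called ones without overlap, up to a set number by size and kind. Where fewer than 4 of a kind and direction qualified, the 6 with the smallest p were named, as values only. From each list came at most 3 members, by p, and the 5 genes most like Olfr221 were added, while unnamed loci were counted only. Omp, Lcn2 and Uty served as checks of the libraries. Alternatives covered array scaling, dim genes, probe sets, the variance model, the libraries fitted, pool and replicate blocks, the titled fraction, each pool left out, and a block for Y-linked signal, which was added after seeing the data.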

Additional observations from a re-analysis of the deposited data

Results flagged for a closer look

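In 104 groups of 4 libraries (52 genes, both treatments), 3 had a library that stood apart by Dixon's test, with a gap larger than its critical value, and chance gives about 1 in 20. Olfr221 was highest in odor replicate 2, at 13.18 against 12.77 to 12.78 in the other odor libraries. Vmn1r4 was highest in vehicle replicate 4, at 3.99 against 3.21 to 3.33, all of them dim. Pik3ip1 was lowest in vehicle replicate 3, at 10.53 against 11.56 to 11.66, and this library came from the pool whose titled fractions ran opposite to S100a5.

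The effect of odor differed between the S100a5-high and S100a5-low libraries in 2 genes by the test of that difference. Olfr221 differed by 5.06 and Olfr170 by 2.02 on the deposited log2 scale (limma adjusted p = 0.00224 and 0.0183). Both calls were lost with the libraries titled GFP-, and that of Olfr170 also with the replicate number as a block and without any 1 pool other than vehicle pool 1.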

How the results depend on the processing

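The 3 genes called in the S100a5-high libraries, Olfr221, Camk2n1 and Pcdh10, were the same 3 in every alternative and with each pool left out, except with the libraries titled GFP-, where 1 gene (Camk2n1) and 0 receptors passed and the S100a5 difference was 0.42. With a pool left out their differences ran from 2.74 to 3.00, 1.95 to 2.13 and 2.44 to 2.89, and the S100a5 difference from -0.0013 to 0.21. In the S100a5-low libraries 0 genes passed (1136 at an unadjusted p under 0.05), but 4 did (Arid5a, Camk2n1, Olfr221 and Pcdh10) with all 16 libraries in 1 model and with pools as a random block. For the difference of odor effects, 2 genes became 0 with the libraries titled GFP-, 1 with the replicate number as a block, and 1 to 2 with a pool left out. Olfr170 then lost its call unless the pool was vehicle 1, and 3 genes passed with an intensity trend or pools as a random block (Olfr937 gained, at an adjusted p of 0.0355 under the block). Signs turned with the libraries titled GFP- for Fosb (-0.35), Nr4a1 (-0.0501), Olfr305 (-0.0058) and Olfr617 (0.0108), and for Uty with a pool left out (-1.01 to 1.31). Same-numbered libraries of the treatments deviated together at correlations of -0.03, 0.24, 0.37 and -0.08, which do not settle whether the numbers pair them. With the replicate block the S100a5-high libraries gave 3 genes, and class I receptors lower at an unadjusted p under 0.05 numbered 42 in place of 26. Receptors of all kinds numbered 60 higher and 104 lower at that level, in place of 32 and 57. The causes were not tested. Few arrays, and no read depth, set the precision of every value.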
